A study of Mus musculus with 12 samples.

Results

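Of 19938 genes with a probe set that named a single gene, 8 are described here as markers of radial glia and neural progenitors: Pax6, Fabp7, Prom1, Ptprz1, Tnc, Hopx, Msi1 and Msi2. Each had 1 such probe set on the array, and all 8 lay above the filter on low values. RNA of cells derived from D3, a line of mouse embryonic stem cells, was profiled on day 16 of neuronal differentiation by 1-colour whole-transcript microarray. The 4 groups comprised unmodified D3 cells (D3), D3 cells that carried a scrambled sequence as a non-targeting control (siSCR), and D3 cells with knockdown of the protein arginine methyltransferase PRMT1 (siPRMT1) or its relative PRMT8 (siPRMT8). There were 3 biological replicates per group, and the labels name no other treatment. The design compares each knockdown with the scrambled and the unmodified cells.

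Radial glia are the elongated progenitors of the developing brain. They divide at the ventricle, give rise to neurons directly or through intermediate progenitors, and later produce astrocytes. Pax6 is a transcription factor of dorsal progenitors that balances self-renewal against neurogenesis. Fabp7 (brain lipid-binding protein) is a fatty acid carrier found in radial glia and astrocytes. Prom1 encodes prominin-1 (CD133), a membrane protein of apical protrusions in neuroepithelial cells. Ptprz1 is a receptor tyrosine phosphatase whose extracellular part binds pleiotrophin, contactin and tenascins, and Tnc encodes tenascin-C, a matrix protein of germinal zones. Hopx is a small homeodomain protein that lacks DNA binding and marks outer radial glia and astrocytes. Msi1 and Msi2 are the Musashi RNA-binding proteins, which regulate translation in progenitors. Several of the 8 are also expressed in astrocytes or in the oligodendrocyte lineage.

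Each group was 1 line, so the history of a line and its knockdown cannot be told apart. Whether the replicates are separate differentiations is not stated, so each p-value reflects only the spread between these samples, which may be technical. In these bulk samples, fewer cells of a type and less RNA per cell cannot be told apart. All values are log2 and all differences are log2 differences with limma's standard error (SE). Prmt1 was lower in siPRMT1 than in siSCR (-1.06, limma adjusted p = 0.000115), and Prmt8 was lower in siPRMT8 (-0.61, limma adjusted p = 0.0171). Prmt1 rose in siPRMT8 (0.43, limma adjusted p = 0.00625). Prmt8 was lower in siPRMT1 too, than in D3 (-0.75, limma adjusted p = 0.00488), though not by the test than in siSCR (-0.32, limma adjusted p = 0.177). Between siPRMT1 and siPRMT8, Prmt8 did not pass (0.29, limma adjusted p = 0.489). On the first principal component, with 61.4% of the variance, siSCR replicate 1 lay at 0.10, apart from the other siSCR arrays at -26.2 and -22.2 and from the D3 arrays at -22.7 to -21.6. The siPRMT1 arrays lay at 16.2, 16.4 and, for replicate 2, 25.7. The siPRMT8 arrays lay at 23.7, 13.6 and 19.7 in the order of their replicate numbers. They spread about as widely as the siPRMT1 arrays, though none of them is treated below as standing apart. Pan-neuronal markers, 10 genes such as Mapt, Syt1 and Rbfox3, averaged 9.64 to 9.76 in D3. They averaged 8.62 in siSCR replicate 1, 9.74 and 9.66 in the other siSCR arrays, 8.31 to 8.48 in siPRMT1 and 8.43 to 8.65 in siPRMT8. The labels call all samples neurons, and markers of pluripotent cells gave signal too: the mean of 8 such genes ranged from 9.47, in siPRMT1 replicate 2, to 10.6, in siPRMT1 replicate 1. Results that rest on siSCR replicate 1 or siPRMT1 replicate 2 are given with and without them.

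Promoter sequences are shown first for Ptprz1, Hopx and Prom1, the 3 genes called against siSCR in both knockdowns. Promoters of 7 of the 8 genes were matched by symbol in RefSeq sequences of assembly GRCm38.p6, and Msi1 was the one without an entry. The sequences below are the 250 bases before the annotated start, 5′ to 3′ on the gene's strand. Capitals mark a GC box (GGGCGG) or a CCAAT box (CCAAT), each searched on both strands, so that CCGCCC and ATTGG appear for matches on the opposite strand. The first is Ptprz1, on the plus strand at chr6:22875252-22875501. The next ones are the upstream and downstream starts of Hopx, on the minus strand at chr5:77115124-77115373 and chr5:77095268-77095517. The last is the upstream of 2 starts of Prom1, on the minus strand at chr5:44101737-44101986.
Ptprz1: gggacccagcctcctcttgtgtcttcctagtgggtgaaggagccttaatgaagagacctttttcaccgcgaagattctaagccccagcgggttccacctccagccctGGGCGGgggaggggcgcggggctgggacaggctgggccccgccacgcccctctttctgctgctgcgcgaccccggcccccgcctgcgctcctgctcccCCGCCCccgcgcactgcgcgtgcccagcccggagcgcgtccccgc
Hopx upstream start: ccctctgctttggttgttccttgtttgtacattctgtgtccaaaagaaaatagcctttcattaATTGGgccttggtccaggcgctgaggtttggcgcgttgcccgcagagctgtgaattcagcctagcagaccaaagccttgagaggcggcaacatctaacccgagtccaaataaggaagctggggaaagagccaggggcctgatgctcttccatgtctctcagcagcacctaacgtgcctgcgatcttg
Hopx downstream start: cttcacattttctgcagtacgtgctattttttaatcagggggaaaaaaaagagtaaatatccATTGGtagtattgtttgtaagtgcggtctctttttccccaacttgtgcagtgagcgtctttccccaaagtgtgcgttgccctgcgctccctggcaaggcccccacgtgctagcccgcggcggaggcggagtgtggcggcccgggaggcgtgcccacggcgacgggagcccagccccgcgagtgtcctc
Prom1 upstream start: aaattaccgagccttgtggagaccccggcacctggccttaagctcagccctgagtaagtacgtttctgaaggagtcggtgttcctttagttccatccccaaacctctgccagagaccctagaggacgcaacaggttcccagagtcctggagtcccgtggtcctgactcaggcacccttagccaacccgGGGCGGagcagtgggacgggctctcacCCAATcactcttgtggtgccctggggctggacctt

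The Ptprz1 window held 22 CpG dinucleotides and 71.6% G and C, against a median of 6 and 52.4% over 32851 promoter windows of the same length. It held 2 GC boxes and no CCAAT box. Both Hopx windows held 1 CCAAT box and no GC box. The Hopx windows differed in CpG content, with 8 in the upstream and 18 in the downstream one. The Prom1 window held 1 GC box and 1 CCAAT box, with 9 CpG dinucleotides and 59.2% G and C. A GC box was present in 32.7% and a CCAAT box in 33.8% of all windows. Of 4 other motifs searched, none was in these 4 windows: the octamer ATGCAAAT (in 1.6% of all windows), the cyclic AMP response element TGACGTCA (1.55%), the RBPJ motif GTGGGAA (5.42%) and the TATA box TATAAA (12.4%). Among the windows not printed, 1 of 2 for Pax6 and all 3 for Msi2 held the cyclic AMP response element. Both Tnc windows held the octamer and the TATA box, and 1 of them held the RBPJ motif. A match is a description of letters, not of a bound factor.

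Against siSCR, the radial glia markers moved in both directions. In siPRMT1, 4 of 8 fell (Ptprz1, Hopx, Tnc and Fabp7) and 1 rose (Prom1). In siPRMT8, 2 fell (Ptprz1 and Hopx) and 3 rose (Prom1, Msi1 and Pax6). Ptprz1 showed the largest change of the 8 in both, a 2.44-fold lower value in siPRMT1 and a 1.89-fold lower value in siPRMT8. A gene was called changed at a Benjamini-Hochberg adjusted p under 0.05, taken over 14953 genes. The 5 of 8 called in siPRMT1 stand beside 18.7% of all genes tested, and the 5 of 8 in siPRMT8 beside 23.8%. The groups did not overlap for 6 of the 8 in siPRMT1, against 30% of all genes, and for 6 in siPRMT8, against 41.8%. The median difference of the 8 was -0.098 in siPRMT1 and 0.11 in siPRMT8, and over all genes it was 0.036 and 0.012. Without siSCR replicate 1 and siPRMT1 replicate 2, 4 of 8 were called in siPRMT1 (34.0% of all genes) and 6 in siPRMT8 (38.2%). With only the siPRMT1 and siSCR arrays in the fit, Ptprz1 alone of the 8 was called in siPRMT1, and 357 of all genes were, in place of 2801.

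**Figure D1:**
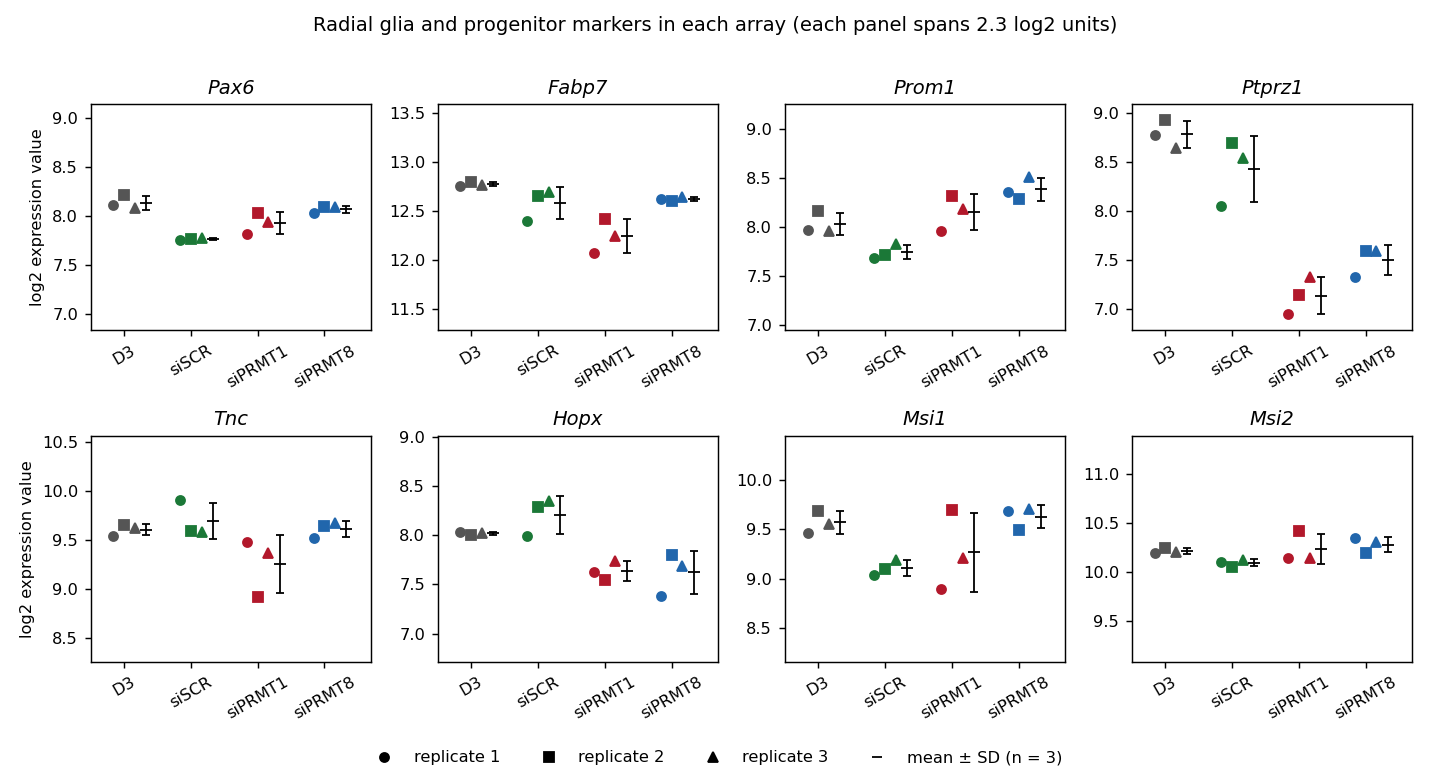
Deposited log2 values of the 8 genes in the 12 arrays, 1 panel a gene, with 1 point per array by replicate number and bars for the mean ± SD of 3 replicates. Ptprz1 and Hopx were lower in all 6 knockdown arrays than in all 6 control arrays, while the siSCR arrays were the lowest for Pax6 (7.76 to 7.78) and Prom1 (7.69 to 7.83). The share of all genes with such a separation of knockdown and control arrays was not counted.

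Against unmodified D3, Ptprz1 and Hopx again fell in both knockdowns. In siPRMT1, 4 of 8 fell (Ptprz1, Fabp7, Hopx and Pax6) and 0 rose, beside 26.4% of all genes called. In siPRMT8, 2 fell (Ptprz1 and Hopx) and 1 rose (Prom1), beside 27.7%. The comparisons of a knockdown with either control share the knockdown's arrays. The groups did not overlap for 5 of the 8 in siPRMT1, against 44.2% of all genes, and for 4 in siPRMT8, against 52.6%. The medians over the 8 were -0.33 in siPRMT1 and -0.029 in siPRMT8, beside 0.051 and 0.028 over all genes. Without siPRMT1 replicate 2, Msi1 was called lower in siPRMT1 than in D3 (-0.52, limma adjusted p = 0.00443), where all arrays gave -0.31 (limma adjusted p = 0.167).

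Between the controls, 0 of the 8 genes passed limma's test. The siSCR and D3 groups did not overlap for 5 of them (Pax6, Fabp7, Prom1, Msi1 and Msi2), all lower in siSCR, beside 20.3% of all genes. Of all genes, 0.154% were called in siSCR against D3. Pax6 lay closest to the threshold at -0.37 (SE 0.065, limma adjusted p = 0.0639) and ranked 27 of 14953 genes by p. Msi1 differed by -0.46 (limma adjusted p = 0.348) and Prom1 by -0.29 (limma adjusted p = 0.357). By an unadjusted p under 0.05, 4 of the 8 differed (Pax6, Prom1, Msi1 and Ptprz1), beside 9.56% of all genes. With array weights Pax6 (-0.36, limma adjusted p = 0.00468) and Msi1 (-0.42, limma adjusted p = 0.0450) were called. Pax6 was not called without siSCR replicate 1 (-0.37, limma adjusted p = 0.114). It was called without siPRMT1 replicate 2, an array outside this comparison that enters only through the shared error (-0.37, limma adjusted p = 0.0227), and without both arrays (-0.37, limma adjusted p = 0.0237). Same-numbered siSCR and D3 arrays deviated together weakly (r = 0.107 to 0.194 across genes). With the replicate number as a block, 0 of the 8 were called and 15 of all genes, in place of 23.

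Between the knockdowns 0 of the 8 passed limma's test, beside 0.154% of all genes. Of the 8, 3 did not overlap (Fabp7, Ptprz1 and Tnc), each lower in siPRMT1, beside 15.8% of all genes. By an unadjusted p under 0.05, 5 of the 8 differed (Fabp7, Prom1, Ptprz1, Tnc and Msi1, all lower in siPRMT1), beside 12.2% of all genes. The interval of the difference for Ptprz1 ran from -0.71 to -0.028, and that for Hopx from -0.24 to 0.26. Without siPRMT1 replicate 2, Fabp7 (-0.46, limma adjusted p = 0.0180) and Msi1 (-0.58, limma adjusted p = 0.0160) were called lower in siPRMT1 than in siPRMT8, and 862 of all genes were called in place of 23.

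**Figure D2:**
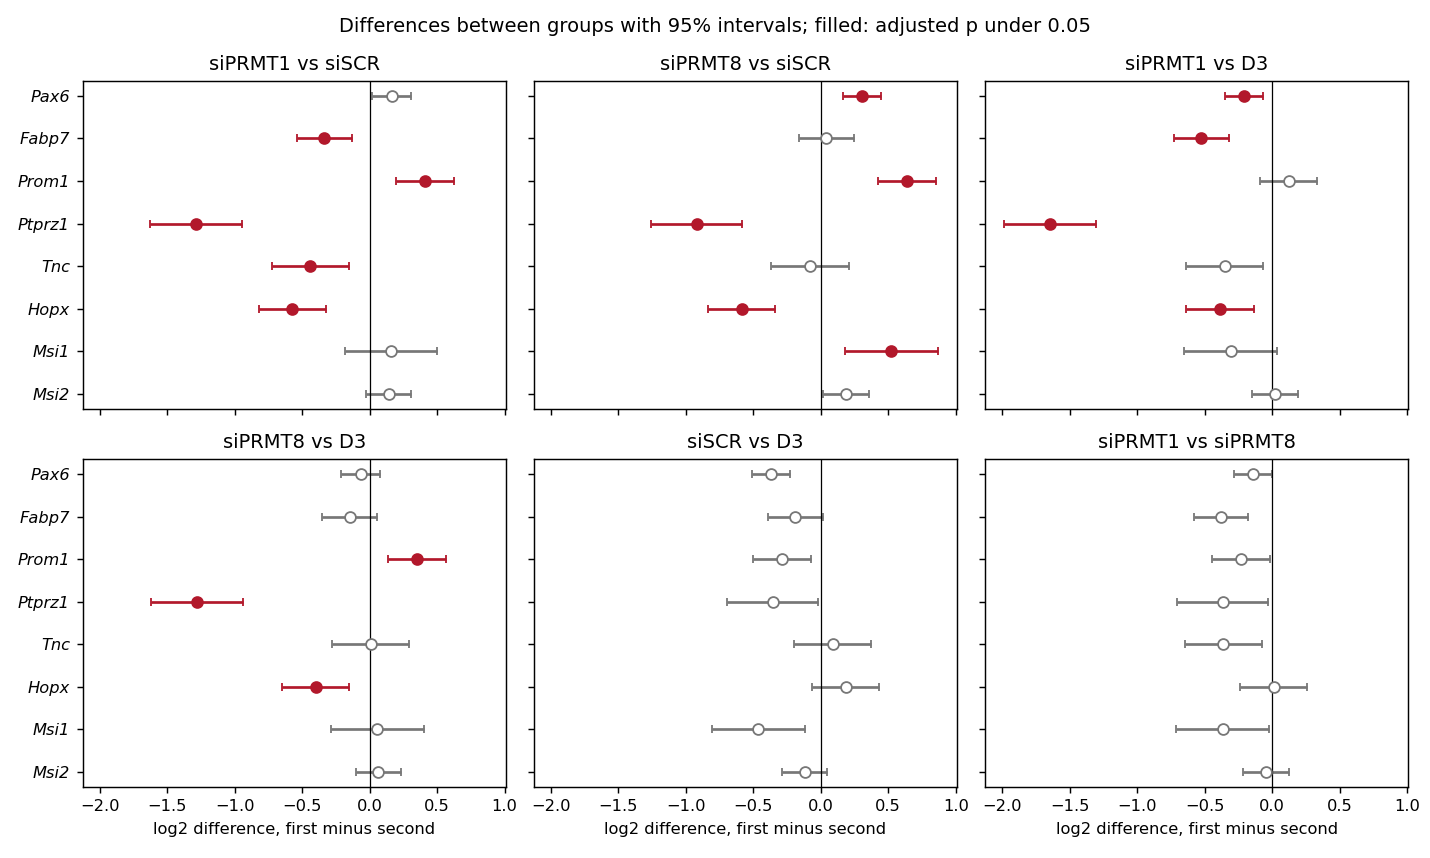
Log2 differences of the 8 genes in the 6 comparisons, first group minus second, with limma's 95% intervals, filled where the adjusted p was under 0.05. Ptprz1 had the largest difference in each of the 4 comparisons of a knockdown with a control, from -1.64 to -0.92, and no gene was called in the 2 comparisons in the last panels.

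Ptprz1, the phosphatase receptor, measured 8.78, 8.92 and 8.64 in the D3 arrays, 8.05, 8.69 and 8.54 in the siSCR arrays, 6.95, 7.14 and 7.32 under siPRMT1 and 7.33, 7.59 and 7.59 under siPRMT8. The 6 knockdown arrays were all below the 6 control arrays, and siSCR replicate 1, the array that stood apart, was the lowest control. How many of all genes separate these 6 and 6 arrays was not counted, so this pattern has no reference. The difference from siSCR was -1.29 in siPRMT1 (SE 0.155, limma adjusted p = 0.000681) and -0.92 in siPRMT8 (SE 0.155, limma adjusted p = 0.00247). Against D3 it was -1.64 (limma adjusted p = 0.000180) and -1.28 (limma adjusted p = 0.000520). Its SD over the 12 arrays was 0.72, higher than for 98.8% of the genes tested. The order of the group means was D3 (8.78), siSCR (8.42), siPRMT8 (7.50) and siPRMT1 (7.14), in which neighbouring D3 and siSCR overlapped and the knockdowns did not differ by the test. Ptprz1 was the single gene of the 8 whose call held under every alternative tried in each comparison of a knockdown with a control.

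Tnc, a ligand of that receptor, measured 9.54, 9.65 and 9.62 in the D3 arrays, 9.90, 9.59 and 9.58 in the siSCR arrays, 9.47, 8.91 and 9.36 under siPRMT1 and 9.52, 9.64 and 9.67 under siPRMT8. The siPRMT1 arrays were below all others, and the highest and lowest values belonged to siSCR replicate 1 and siPRMT1 replicate 2. Tnc was lower in siPRMT1 than in siSCR by the test (-0.44, SE 0.131, limma adjusted p = 0.0369). That call was lost without siSCR replicate 1 (-0.34, limma adjusted p = 0.0907), without siPRMT1 replicate 2 (-0.27, limma adjusted p = 0.0659), without both (-0.17, limma adjusted p = 0.104) and without siSCR replicate 2 or 3 or siPRMT1 replicate 3 (limma adjusted p = 0.0550 to 0.0661). Tnc against D3 was -0.35 in siPRMT1 (limma adjusted p = 0.0670), and it was called without siPRMT1 replicate 1 (-0.46, limma adjusted p = 0.0284) and with array weights (-0.24, limma adjusted p = 0.0169). In siPRMT8 the difference from siSCR was -0.080 (95% interval -0.37 to 0.21).

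Of 16 genes that encode ligands, receptors and partners of Ptprz1 and of tenascins, 6 fell and 0 rose in siPRMT1 against siSCR, and 9 fell and 3 rose in siPRMT8 (medians -0.19 and -0.30). Against D3, 7 fell and 3 rose in each knockdown, and Mdk, Itga8 and Itga9 were those that rose in both. Without both arrays that stood apart, 9 fell and 1 rose in siPRMT1 against siSCR. Those that fell were led by Cntn1, the neuronal adhesion molecule contactin-1 (-1.48 in siPRMT1, SE 0.32, limma adjusted p = 0.00938, and -1.38 in siPRMT8), and Ncan, the proteoglycan neurocan (-1.30, SE 0.20, limma adjusted p = 0.00205, and -1.17). In siSCR replicate 1 both lay nearer to the knockdowns than in the other siSCR arrays: Cntn1 read 6.86 in siSCR replicate 1 and 8.42 and 8.34 in the other siSCR arrays, against 6.17 to 6.53 in siPRMT1. Those that rose in siPRMT8 were Ptn, which encodes the ligand pleiotrophin (0.71, SE 0.210, limma adjusted p = 0.0307), Mdk, which encodes the related midkine (0.63, limma adjusted p = 0.0122), and Itga8, an integrin subunit that pairs to bind tenascin-C (0.68, SE 0.119, limma adjusted p = 0.00292). Ptn in siPRMT1 differed from siSCR by 0.15 (limma adjusted p = 0.637). Without siSCR replicate 1, Ptn was not called in siPRMT8 (0.51, limma adjusted p = 0.0859), but without both arrays that stood apart it was. Against D3, Ptn in siPRMT8 differed by 0.33 (limma adjusted p = 0.278, and 0.00340 without both arrays that stood apart). Without siSCR replicate 1 and siPRMT1 replicate 2 together, Ptn was called lower in siPRMT1 (-0.32, limma adjusted p = 0.0158).

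Hopx measured 8.04, 8.01 and 8.03 in the D3 arrays, 7.99, 8.29 and 8.35 in the siSCR arrays, 7.63, 7.55 and 7.74 under siPRMT1 and 7.38, 7.80 and 7.69 under siPRMT8. As for Ptprz1, all 6 knockdown arrays lay below all 6 control arrays, a pattern whose share over all genes was not counted. The difference from siSCR was -0.57 in siPRMT1 (SE 0.114, limma adjusted p = 0.00641) and -0.59 in siPRMT8 (SE 0.114, limma adjusted p = 0.00470). Against D3 the values were -0.39 (limma adjusted p = 0.0271) and -0.40 (limma adjusted p = 0.0221). The siPRMT1 call against D3 was lost without any 1 of the D3 replicates or without siPRMT1 replicate 1 or 2 (limma adjusted p = 0.0583 to 0.0762). The siPRMT8 call was lost without any 1 of the D3 replicates or without siPRMT8 replicate 1, where the difference was -0.28 (limma adjusted p = 0.0870).

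Of 9 tested genes associated with outer radial glia, Moxd1, a monooxygenase homologue, rose and 2 fell in siPRMT1 against siSCR, and 1 rose and 4 fell in siPRMT8 (medians -0.27 and -0.33), or 1 and 7 without both arrays that stood apart. Moxd1 differed by 0.84 in siPRMT1 (limma adjusted p = 0.000640) and by 0.96 in siPRMT8 (limma adjusted p = 0.000425). Moxd1 was also lower in siSCR than in D3 (-0.62, limma adjusted p = 0.0431), and in siPRMT1 it was 0.22 above D3 (limma adjusted p = 0.119). In siPRMT8 it was called higher than in D3 (7.31, 7.59 and 7.47 against 7.10, 7.28 and 6.96). The transcription factor Stat3, which acts downstream of LIF-family receptors, fell by 0.51 in siPRMT1 and by 0.67 in siPRMT8 (limma adjusted p = 0.00213 and 0.000626). Acsbg1, an acyl-CoA synthetase of astroglia, fell by 0.55 and 0.45 (limma adjusted p = 0.00291 and 0.00541). Fam107a, the other gene of this list, was below the filter on low values.

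Fabp7 measured 12.75, 12.79 and 12.76 in the D3 arrays, 12.39, 12.65 and 12.69 in the siSCR arrays, 12.07, 12.41 and 12.25 under siPRMT1 and 12.62, 12.60 and 12.64 under siPRMT8. The siPRMT8 arrays (SD 0.0203, n = 3) lay inside the range of siSCR, and siSCR replicate 1 was the single array of another group inside the range of siPRMT1. Fabp7 was lower in siPRMT1 than in siSCR (-0.34, SE 0.0927, limma adjusted p = 0.0268) and than in D3 (-0.53, limma adjusted p = 0.00201). The call against siSCR was lost without siPRMT1 replicate 1 (limma adjusted p = 0.0787) or 3 (0.0691), or without siSCR replicate 2 (0.104) or 3 (0.112), and the call against D3 held under every alternative. In siPRMT8 the difference from siSCR was 0.041 (95% interval -0.16 to 0.24) and from D3 -0.15 (limma adjusted p = 0.267, and 0.0403 with only these groups in the fit).

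Prom1 measured 7.97, 8.16 and 7.96 in the D3 arrays, 7.69, 7.71 and 7.83 in the siSCR arrays, 7.96, 8.32 and 8.18 under siPRMT1 and 8.36, 8.28 and 8.51 under siPRMT8. The siPRMT8 arrays were above all arrays of both controls, and the siPRMT1 arrays were above siSCR but overlapped D3. Prom1 rose by the test in siPRMT1 (0.41, SE 0.0979, limma adjusted p = 0.0148) and in siPRMT8 (0.64, 1.56-fold, limma adjusted p = 0.00166) against siSCR. Without siSCR replicate 2 the siPRMT1 call was lost (0.39, limma adjusted p = 0.0575). Against D3 the difference was 0.12 in siPRMT1 (limma adjusted p = 0.368) and 0.35 in siPRMT8 (limma adjusted p = 0.0197), and the latter was lost without siPRMT8 replicate 3, D3 replicate 1 or D3 replicate 3 (limma adjusted p = 0.0745 to 0.0845).

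Pax6 measured 8.12, 8.22 and 8.08 in the D3 arrays, 7.76, 7.77 and 7.78 in the siSCR arrays, 7.82, 8.03 and 7.94 under siPRMT1 and 8.03, 8.09 and 8.10 under siPRMT8. The siSCR arrays were the lowest (SD 0.0100, n = 3), so the sign of a knockdown's difference depended on the control. Neither knockdown was called in opposite directions against the controls. Pax6 was higher in siPRMT8 than in siSCR (0.30, SE 0.0654, limma adjusted p = 0.00753), and that call held under every alternative. Against D3 it differed by -0.066 in siPRMT8 (limma adjusted p = 0.488). In siPRMT1 it was 0.16 above siSCR (limma adjusted p = 0.104, and 0.0409 without siPRMT1 replicate 1) and 0.21 below D3 (-0.21, limma adjusted p = 0.0367). The lower value against D3 was lost in 8 of 16 alternatives, among them no filter on low values (limma adjusted p = 0.0546), quantile normalisation (0.116), and the fits without any 1 of the D3 replicates or without siPRMT1 replicate 1 or 3.

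Of 7 tested genes of intermediate progenitors and Pax6-linked neurogenesis, 2 rose in both knockdowns against siSCR, with 0 lower in siPRMT1 and 1 lower in siPRMT8. Without both arrays that stood apart, 4 rose in siPRMT1 and 3 in siPRMT8. Neurod4, a proneural transcription factor, read 6.14, 6.57 and 6.33 in siSCR, 6.79, 8.14 and 7.56 in siPRMT1 and 7.74, 7.76 and 7.94 in siPRMT8. It differed from siSCR by 1.15 (limma adjusted p = 0.0111) and 1.47 (SE 0.258, limma adjusted p = 0.00291). It read 7.39, 7.67 and 7.26 in D3, inside the range of siPRMT1, so siSCR was the low group for this gene as for Pax6. Insm1, a zinc-finger factor of basal progenitors, rose by 0.50 and 0.55 (limma adjusted p = 0.0125 and 0.00667). Against D3, neither Neurod4 nor Insm1 was called in either knockdown. Neurod1 fell in siPRMT8 (-0.35, SE 0.109, limma adjusted p = 0.0384), a call lost without siSCR replicate 1 (limma adjusted p = 0.0897). Without siSCR replicate 1 and siPRMT1 replicate 2 together, Neurod1 was called lower in siPRMT8 and higher in siPRMT1 (0.27 in siPRMT1, limma adjusted p = 0.0191). Neurod6 and Tbr1 were below the filter.

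Of the Musashi genes, Msi1 was called in 1 of the 6 comparisons and Msi2 in 0. Msi1 measured 9.46, 9.69 and 9.56 in the D3 arrays, 9.04, 9.10 and 9.19 in the siSCR arrays, 8.90, 9.70 and 9.21 under siPRMT1 and 9.69, 9.49 and 9.71 under siPRMT8. The siPRMT1 arrays spread widest (SD 0.40, n = 3), with replicate 1 below and replicate 2 above all siSCR arrays. Msi1 was higher in siPRMT8 than in siSCR (0.52, SE 0.157, limma adjusted p = 0.0328), but the call was lost without any 1 of the siSCR replicates (limma adjusted p = 0.0668 to 0.0863) or without siPRMT8 replicate 1 or 3 (0.0948 and 0.110). Msi1 in siPRMT8 differed from D3 by 0.058 (95% interval -0.29 to 0.40). In siPRMT1 the difference from siSCR was 0.16 (limma adjusted p = 0.508) and turned to -0.057 without siPRMT1 replicate 2.

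Msi2 measured 10.19, 10.25 and 10.20 in the D3 arrays, 10.10, 10.05 and 10.12 in the siSCR arrays, 10.14, 10.42 and 10.14 under siPRMT1 and 10.34, 10.19 and 10.30 under siPRMT8. Its SD over the 12 arrays was 0.105, above that of 25.4% of the genes tested. The difference from siSCR was 0.14 in siPRMT1 (limma adjusted p = 0.224) and 0.19 in siPRMT8 (limma adjusted p = 0.102). Msi2 in siPRMT8 was called higher without siSCR replicate 1 and siPRMT1 replicate 2 (0.19, limma adjusted p = 0.0284). Among the 8 genes, Pax6 and Msi2 had the most similar profiles, with a root mean square difference of 0.116 between their centred values over the 12 arrays.

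The spread within groups was not the same for the 8 genes. The median SD of the 8 was 0.0633 in D3, 0.121 in siSCR, 0.176 in siPRMT1 and 0.0990 in siPRMT8, beside 0.0614, 0.0979, 0.122 and 0.0796 over all genes. In siSCR replicate 1, the difference from the mean of the other siSCR arrays was -0.57 for Ptprz1, -0.33 for Hopx, -0.28 for Fabp7 and 0.32 for Tnc. In siPRMT1 replicate 2, the difference from the mean of the other siPRMT1 arrays was 0.64 for Msi1 and -0.50 for Tnc. Without siSCR replicate 1, Ptprz1, Hopx and Fabp7 were still called lower in siPRMT1 than in siSCR.

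Ptprz1 alone of the 8 varied enough to seek genes of similar profile. By the smallest root mean square difference between centred log2 values over the 12 arrays, the 3 nearest genes were Erbb4, the receptor tyrosine kinase for neuregulins (0.103), Zcchc12, a zinc-finger transcriptional co-activator (0.109), and Tmem35a, a chaperone of neuronal acetylcholine receptors (0.117). The median of this measure over all genes was 0.721. Mean values of Erbb4 were 9.39 in D3, 8.98 in siSCR, 7.70 in siPRMT1 and 8.08 in siPRMT8, in the order of the Ptprz1 means.

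Of 24 other genes of neural progenitors, 2 rose and 9 fell in siPRMT1 against siSCR, and 5 rose and 6 fell in siPRMT8, with medians of -0.14 and 0.027. Against D3, 0 rose and 9 fell in siPRMT1, and 2 rose and 8 fell in siPRMT8. The genes that fell in both included Adgrg1, the adhesion receptor GPR56 (-1.60 and -1.48 against siSCR, limma adjusted p = 0.000115 and 0.000206), and the nuclear factor I genes Nfia (-0.99 and -0.79), Nfib (-0.98 and -0.71) and Nfix (-0.64 and -0.59), which act in the switch of progenitors to gliogenesis. Slc1a3, the glutamate transporter GLAST of radial glia and astrocytes, fell by 0.87 and 0.74, and Notch1, the receptor that keeps progenitors undifferentiated, by 0.42 and 0.45. Adgrg1 read 9.60 to 9.98 in siSCR, 8.17 to 8.39 in siPRMT1 and 8.17 to 8.59 in siPRMT8, with no overlap.

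Gli3, a transcription factor of the hedgehog pathway in dorsal progenitors, rose in both (0.73, limma adjusted p = 0.0247, and 0.95, SE 0.198, limma adjusted p = 0.00648), as did the LIM-homeodomain gene Lhx2 (0.58 and 0.53). The Notch ligand Dll1 (0.63, SE 0.207, limma adjusted p = 0.0457), the Notch target Hes5 (0.55) and Sox1 (0.46) rose in siPRMT8. Without siSCR replicate 1 all 3 calls were lost, for Dll1 (0.48, limma adjusted p = 0.127), Hes5 (0.46, limma adjusted p = 0.10) and Sox1 (0.44, limma adjusted p = 0.0748). Gli3, Lhx2 and Sox3 were then the 3 that rose in siPRMT8. With siPRMT1 replicate 2 left out too, Dll1, Hes5 and Sox1 were again called higher in siPRMT8 than in siSCR. Against D3 with all arrays, Gli3 and Sox1 were called higher in siPRMT8 but not in siPRMT1. Lhx2, Dll1 and Hes5 were called against D3 in neither knockdown. Dll1 read 7.71, 7.78 and 7.48 in D3, 6.79, 7.32 and 7.16 in siSCR and 7.79, 7.60 and 7.78 in siPRMT8. Without siPRMT1 replicate 2, Hes5 was called lower in siPRMT1 than in D3 (-0.45, limma adjusted p = 0.0155). Nes, which encodes the intermediate filament nestin, did not pass in either (0.11 and 0.41, limma adjusted p = 0.692 and 0.121), nor did the stem cell factor Sox2 (-0.19 and -0.22). Without siSCR replicate 1 and siPRMT1 replicate 2, 2 of the 24 rose and 11 fell in siPRMT1, and 9 rose and 8 fell in siPRMT8.

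**Figure D3:**
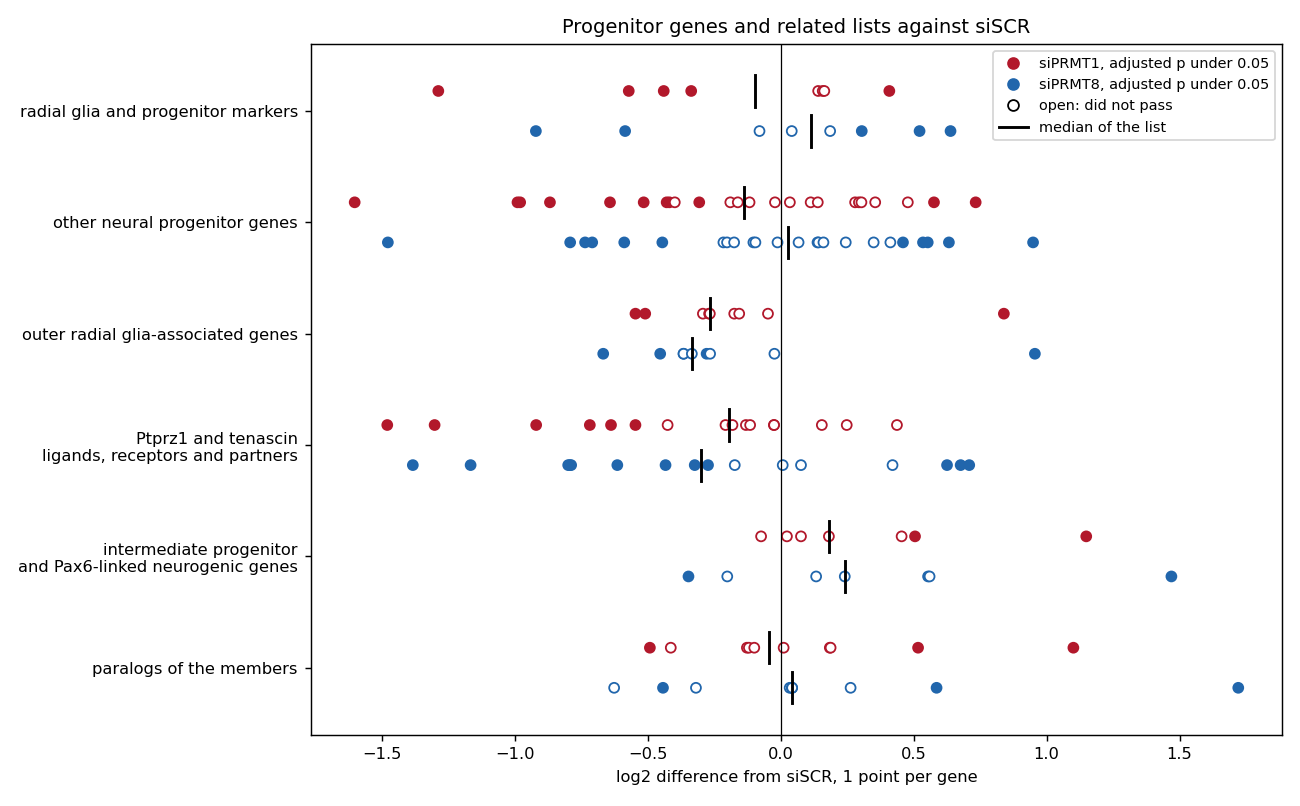
Log2 differences from siSCR of the 8 genes and of the 5 lists of related progenitor, ligand and paralog genes, 1 point per gene, siPRMT1 in red and siPRMT8 in blue, filled where the adjusted p was under 0.05, with a bar at the list's median. Among the other neural progenitor genes Adgrg1 lies farthest to the left at -1.60 and -1.48.

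Of 12 paralogs of the 8 genes, 10 were tested, and 2 rose and 1 fell in each knockdown against siSCR. Without both arrays that stood apart, 2 rose and 3 fell in siPRMT1, and 3 rose and 3 fell in siPRMT8. Pax3 and Pax7, related paired-box factors of dorsal neural tube and neural crest, rose in both knockdowns against siSCR. Pax3 differed by 1.10 in siPRMT1 (limma adjusted p = 0.0125) and by 1.72, 3.30-fold, in siPRMT8 (limma adjusted p = 0.00139), and Pax7 by 0.52 and 0.59. Against D3, both were called higher in siPRMT8 but neither in siPRMT1. Pax3 read 7.61, 7.96 and 7.48 in D3, inside the range of siPRMT1 (7.24, 8.57 and 7.78), and 6.71, 6.85 and 6.74 in siSCR. Pax8 fell by 0.49 (limma adjusted p = 0.0330) and 0.44 against siSCR. Without siPRMT1 replicate 2 it was not called in siPRMT1 (limma adjusted p = 0.0753), but without both arrays that stood apart it was. With all arrays, Fabp3, Fabp5, Prom2, Ptprg and Tnxb were not called against siSCR in either. Without both arrays that stood apart, Fabp5 was called lower in siPRMT1 (-0.30, limma adjusted p = 0.0108) and higher in siPRMT8 (0.21, limma adjusted p = 0.0399). Fabp3 was then called lower in siPRMT8 (-0.50, limma adjusted p = 0.0236). Pax2 was called lower in both against D3, and against siSCR without siSCR replicate 1 (limma adjusted p = 0.000262 and 0.000889). Against D3, Prom2 was called higher and Ptprg lower in siPRMT1. Fabp4 and Tnn lay below the filter.

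Markers of other cell types moved in the same comparisons. All 10 pan-neuronal genes were lower in each knockdown against D3, and 8 and 6 of them were lower against siSCR in siPRMT1 and siPRMT8, or 10 and 10 without siSCR replicate 1. Of 9 tested astrocyte markers, 7 fell and 1, Gja1, rose in each knockdown against siSCR. The mean astrocyte level ranged from 8.36 to 8.39 in D3, 8.22 to 8.59 in siSCR, 7.36 to 7.70 in siPRMT1 and 7.41 to 7.75 in siPRMT8, so no knockdown array reached a control array. Of 9 proliferation markers, 4 rose and 0 fell in each knockdown against siSCR, with means of 10.1 to 10.2 in siSCR, 10.3 to 10.5 in siPRMT1 and 10.3 to 10.4 in siPRMT8, and 7 and 6 rose without both arrays that stood apart. Of 8 pluripotency markers, 0 were called against siSCR, and without those arrays 3 rose in siPRMT1 and 2 fell in siPRMT8. Against D3, 1 of these 8, Pou5f1, was called higher in each knockdown, and without those arrays 5 rose in siPRMT1 and 2 in siPRMT8. Of 8 oligodendrocyte-lineage markers, Olig1 and Olig2 fell in both, Cnp fell in siPRMT8 and Pdgfra rose in siPRMT1. The Pdgfra call (0.30) was lost without siSCR replicate 1 (limma adjusted p = 0.0661), without siPRMT1 replicate 2 (limma adjusted p = 0.0520) and without both (limma adjusted p = 0.0889). Of 7 tested mesenchymal markers, 4 fell in siPRMT1 and 5 in siPRMT8 against siSCR, led by Dcn and Postn. Without siSCR replicate 1, 3 fell in each, and Postn was not called (limma adjusted p = 0.0506 and 0.0502). Without both arrays that stood apart, Postn was called lower in each. Of the lists of epithelial and endoderm, cardiac and muscle, endothelial and myeloid markers, none had more than 2 genes called against siSCR in either with all arrays, and 2 of 5 myeloid markers lay above the filter. Without both arrays that stood apart, 3 of the 7 tested epithelial and endoderm markers rose and 1 fell in siPRMT1, and 2 rose and 2 fell in siPRMT8. Fabp7, Ptprz1, Hopx and Tnc are also expressed in astrocytes, and the part of these shifts in the values of the 8 genes was not tested.

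**Figure D4:**
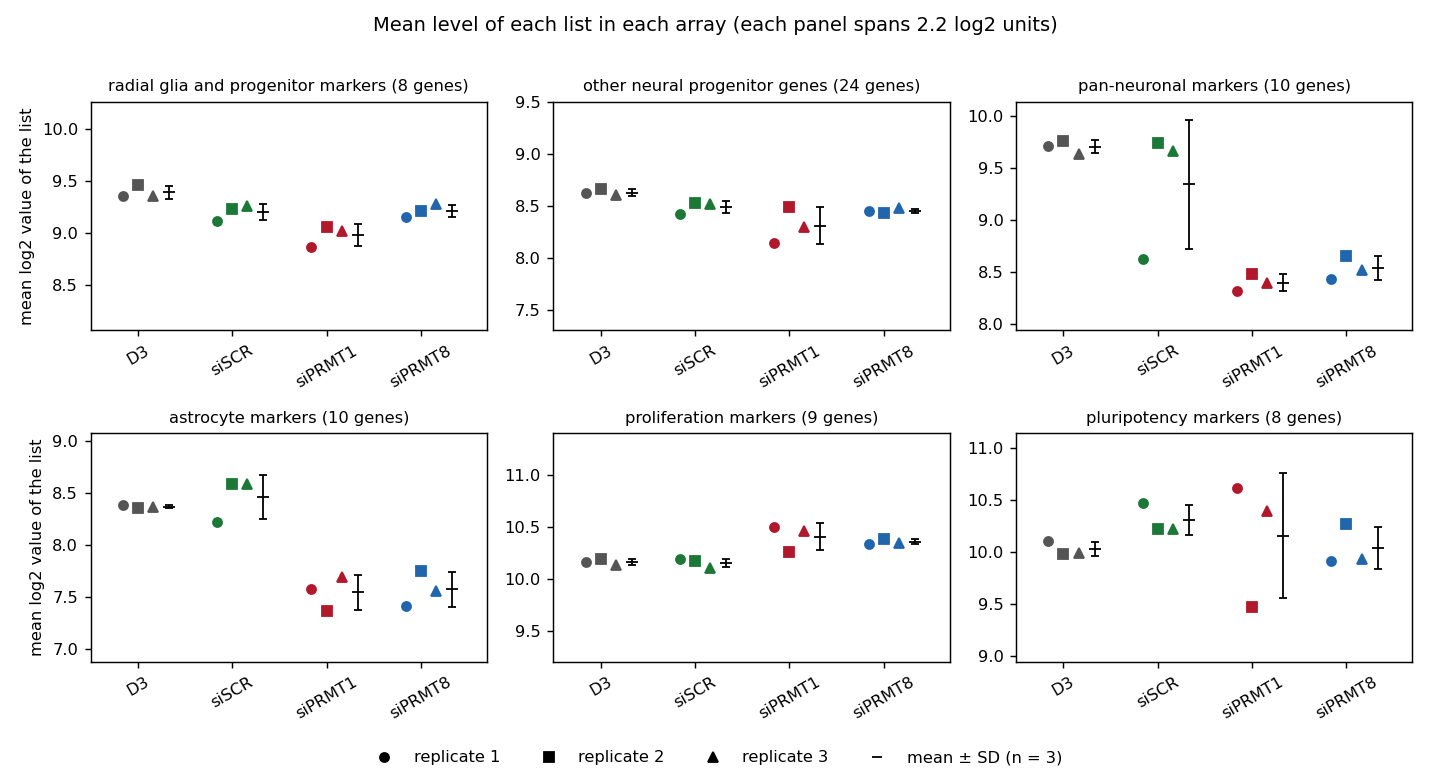
Mean log2 value of each list in each of the 12 arrays, with 1 point per array by replicate number and bars for the mean ± SD of 3 replicates. The astrocyte mean was lower in all 6 knockdown arrays than in all 6 control arrays, and the pan-neuronal mean of siSCR replicate 1 (8.62) lay inside the range of siPRMT8 (8.43 to 8.65).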

How the data were processed

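Total RNA of 12 samples was converted to biotin-labelled single-stranded cDNA and hybridised to 1-colour arrays, per the labels' protocols. Deposited was a table with 1 value per probe set and array for 35556 probe sets, on a log2 scale that was read from the values. How the authors corrected background and normalised is not given in the sources used here. Without scanner files, no detection call stands beside a value. Array medians differed by at most 0.023, and none was rescaled. Apart from the choice of a probe set per symbol and the filter on low values, levels of 1 probe set were not ranked against those of another. No hybridisation batch is named in the labels.

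Probe sets were named through the platform annotation, with symbols updated by gene ID through RefSeq (GRCm38.p6). Those with 1 symbol (21789) were kept, and the one with the highest mean stood for a symbol (19938). The lowest 25% by mean (below 5.43) were left out, which left 14953. The fit used lmFit and eBayes of limma 3.58.1 (R 4.3.3), with 1 mean per group and 8 degrees of freedom left. Benjamini-Hochberg adjustment ran over all 14953 genes, at a threshold of 0.05. The number of arrays limits the precision. On simulated data for siPRMT1 against siSCR, with 200 of 14953 genes changed, 76.1% of the 1.5-fold changes were recovered, 98.5% of the 2-fold ones and 100% of the 4-fold ones, and 13 calls were false. The simulation drew genes independently, each with the same SD in all groups. It held no arrays that stood apart and fewer changed genes than were called here. Its recovery and false calls therefore need not hold for the real arrays.

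The 8 genes and all lists were chosen with earlier results of these data known. Named list genes were, for each list, up to 2 higher and 2 lower with the largest change among those that passed in a knockdown against siSCR. Other list genes were named after their values were seen: Lhx2, Hes5, Sox1, Sox3, Nes, Sox2, Slc1a3, Notch1, Nfib, Nfix, Mdk, Pax2, Fabp3, Fabp5, Prom2, Ptprg and the marker genes of other cell types, as were genes below the filter. Genes of similar profile were sought for those of the 8 with an SD of at least 0.3 over the arrays. Promoter motifs were chosen after the sequences were seen. Replicate numbers recur in all groups. Same-numbered arrays deviated together from their group means (r above 0.1 across genes) for all 3 pairs of siSCR and D3 (0.107 to 0.194), and for 8 of 18 pairs in all. Arrays of different numbers were not compared in this way, so these values have no reference. Alternatives were other normalisations, filters, variance models, array weights, a replicate block, 2-group fits and leaving out arrays.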

Additional observations from a re-analysis of the deposited data

How the results depend on the processing

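In siPRMT1 against siSCR, 5 of the 8 genes were called with all arrays, 1 with only these groups in the fit, and 2 to 5 when 1 array was left out. In siPRMT1 against D3 the number was 4, and 2 to 4 when 1 array was left out. Arrays left out for these ranges belonged to the groups compared. Without siSCR replicate 1, which enters siPRMT1 against D3 only through the shared error, the number was 5 (29.8% of all genes). Without both arrays that stood apart the number was 6 (37.8%). In siPRMT8 it was 5 against siSCR, and 4 to 6 under all alternatives, and 3 against D3, or 1 to 3 when 1 array was left out. In siSCR against D3, 0 became 2 with array weights and 1 without siSCR replicate 1 and siPRMT1 replicate 2 together. In siPRMT1 against siPRMT8, 0 became 2 with array weights, 3 without both those arrays, and 0 to 2 when 1 array was left out. With the replicate number as a block, these numbers were 5, 5, 4, 3, 0 and 0, as without it, and no call on a gene of the 8 changed. That fit gave 15 in place of 23 genes in siSCR against D3 and 14 in place of 23 in siPRMT1 against siPRMT8.

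No called value turned sign. Values that did, all not called, were Msi1 in siPRMT1 against siSCR (0.16 to -0.093 without both arrays that stood apart) and, in siPRMT8 against siSCR, Fabp7 (-0.031 with array weights, -0.052 without both) and Tnc (0.0021 and 0.025). So did Msi2 in siPRMT1 against D3 (-0.0021 after quantile normalisation, -0.051 with array weights, -0.070 without both) and Tnc in siSCR against D3 (-0.017 without both). With 1 array left out, Msi1 ranged from -0.057 to 0.34 in siPRMT1 against siSCR. Fabp7 ranged from -0.052 to 0.097 and Tnc from -0.13 to 0.025 in siPRMT8 against siSCR. Msi2 ranged from -0.070 to 0.066 in siPRMT1 against D3, and Tnc from -0.024 to 0.056 in siPRMT8 against D3. Tnc ranged from -0.017 to 0.14 in siSCR against D3. In siPRMT1 against siPRMT8, Hopx ranged from -0.11 to 0.10 and Msi2 from -0.14 to 0.00045. Over all alternatives, 679 values of the 8 genes kept their direction and call, 40 lost the call, 20 gained one and 21 turned sign. The cause was not tested.

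Over all genes, array weights gave 5528, 5694, 6592 and 6581 calls for siPRMT1 and siPRMT8 against siSCR and then against D3, in place of 2801, 3565, 3952 and 4135, and 279 and 1046 in place of 23 and 23 for siSCR against D3 and siPRMT1 against siPRMT8. The 2-group fits gave 357, 9 and 2 for siPRMT1 against siSCR, siSCR against D3 and siPRMT1 against siPRMT8. For siPRMT8 against siSCR, siPRMT1 against D3 and siPRMT8 against D3 they gave 2937, 3303 and 6000, in place of 3565, 3952 and 4135. Leaving out both arrays that stood apart gave 5077 and 5710 against siSCR, 152 in siSCR against D3 and 1901 between the knockdowns. With the lowest 50% of genes left out, siSCR against D3 gave 12. With 1 array of the groups compared left out, siPRMT1 against siSCR gave 1317 (without siSCR replicate 3) to 3763 (without siSCR replicate 1). In the same way, siPRMT8 against siSCR gave 1804 (without siPRMT8 replicate 3) to 4107 (without siSCR replicate 1). The ranges were 2643 to 4639 and 2736 to 3357 for siPRMT1 and siPRMT8 against D3, 2 to 21 for siSCR against D3, and 2 to 862 between the knockdowns.

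Counts and calls of the gene lists without siSCR replicate 1 and siPRMT1 replicate 2 were an alternative chosen after seeing the data.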
